A study of Mus musculus with 12 samples.

Results

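Affinity sequencing with ZBTB43, a zinc finger protein, yielded 2 deposited peak lists, and the regions described here are the peaks that lay at olfactory receptor genes. A peak was included when its midpoint was on an autosome and within 10 kb of a gene whose GENCODE M21 name starts with Olfr. This gave 57 of 14694 peaks in unmethylated TKO DNA and 1009 of 175775 peaks in SssI-methylated DNA, of which 14554 and 169284 were on autosomes. MBP-ZBTB43, the full-length mouse protein made in bacteria and fused to maltose-binding protein (MBP), was bound to beads and mixed with sonicated genomic DNA, and MBP alone gave the background. TKO DNA came from 1 clone of a male mouse ES cell line with the genotype Dnmt1-/-Dnmt3a-/-Dnmt3b-/-, labelled 3.5 dpc, which lacks the 3 DNA methyltransferases that methylate CpGs. SssI DNA came from the lung of wild-type male adult C57BL/6N mice, 2 months old, and its CpGs were methylated in vitro with the bacterial enzyme M.SssI. Each of the 4 combinations of protein and DNA had 2 libraries, 8 of the 12 in the series. The other 4, of sperm DNA, were not used here. The duplicates were pooled before peaks were called, so each DNA is represented by 1 list without replicate error, and no test was made between conditions. Intervals are 95% intervals that cover counting error only, and the lists do not give the depth behind the peaks. The strain of the TKO line is given only as its genotype, and methylation cannot be told apart from cell type, strain and depth between the lists.

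Olfactory receptors are G protein-coupled receptors with which sensory neurons of the nose detect odorants, and each neuron expresses 1 allele of 1 receptor gene. They form one of the largest gene families of the mouse, arranged in tandem clusters that grew by local duplication and hold many pseudogenes. Their coding sequence usually lies in a single exon, with noncoding exons and introns upstream. Class I receptors, related to those of fish, lie in 1 cluster on chromosome 7 around the beta-globin (Hbb) genes, and class II receptors make up the other clusters. Runs of alternating purines and pyrimidines such as (CA)n, called tracts here, can form left-handed Z-DNA, the structure that the study concerns.

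To show what was captured at these genes, the longest alternating tract was read from GRCm38, the assembly named mm10, in the strongest peaks of each list, and 5 of these tracts are shown. They are printed on the forward strand, 5′ to 3′, and capitals mark CpGs. In TKO DNA the tract of the peak with the highest score was 71 bp long, at chr7:6433326-6433396, in a peak centred 5114 bp upstream of the start of Olfr1344.
Olfr1344: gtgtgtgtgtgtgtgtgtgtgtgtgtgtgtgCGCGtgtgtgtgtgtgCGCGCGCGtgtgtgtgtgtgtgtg
The next was at chr7:140155861-140155912, downstream of Olfr522, and had no CpG.
Olfr522: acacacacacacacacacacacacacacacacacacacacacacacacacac
The tract at chr11:49146966-49147017 lay in an intron of Olfr1395.
Olfr1395: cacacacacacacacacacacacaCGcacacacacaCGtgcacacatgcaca
The tract downstream of Olfr412, at chr11:74375078-74375105, was the shortest of those shown. It ended at the edge of its peak, and since tracts were read only inside peaks it may be longer. In the wider SssI peak there the longest tract was 33 bp.
Olfr412: tgcatgtgtgcatgCGcacatgcatgta
In SssI DNA the peak with the highest score held a tract without a CpG, upstream of Olfr967, at chr9:39743084-39743148.
Olfr967: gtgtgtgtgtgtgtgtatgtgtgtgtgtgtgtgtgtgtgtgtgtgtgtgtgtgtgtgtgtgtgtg
Other strong SssI peaks, at Olfr464, Olfr271-ps1 and Olfr1221, held tracts mostly of TG or CA of 164, 41 and 35 bp with at most 1 CpG. None of these tracts overlapped an annotated exon of an Olfr gene.

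Peaks were sparser around Olfr genes than around other protein-coding genes in both lists. The surroundings of the 1399 autosomal Olfr genes, 1128 of them protein coding and 271 pseudogenes, covered 24.5 Mb with their flanks of 10 kb, and those of 19679 other protein-coding genes covered 1197 Mb. In the TKO list the density was 2.32 peaks per Mb (1.76 to 3.01) around Olfr genes and 6.59 (6.44 to 6.73) around the others, a ratio of 0.353 (0.267 to 0.458). In the SssI list it was 41.1 peaks per Mb (38.6 to 43.8) against 74.5 (74.0 to 75), a ratio of 0.553 (0.519 to 0.588). The density around the others was thus 2.83 times that around Olfr genes in the TKO list and 1.81 times in the SssI list when each list was taken whole. The lists differ in length, and among the 14694 strongest SssI peaks, as many as the TKO list holds and a setting chosen after the data were seen, the ratio was 0.345 (0.260 to 0.449), with 55 peaks at Olfr genes. The interval of the TKO ratio included this value. Surroundings of protein-coding Olfr genes and of Olfr pseudogenes, which overlap in part, lay at 41.2 and 41.5 SssI peaks per Mb and at 2.23 and 2.99 TKO peaks per Mb. The vomeronasal receptor genes, which encode clustered pheromone receptors, lay lower still in the SssI list, with 22.7 peaks per Mb (19.2 to 26.6) at Vmn1r genes and 22 (19.0 to 25.3) at Vmn2r genes. Their TKO densities were 1.20 (0.519 to 2.37) and 0.778 (0.313 to 1.60). Taar genes, which encode amine receptors of the nose, had 1 TKO peak (4.92 per Mb, 0.125 to 27.4) and 12 SssI peaks (59 per Mb, 30.5 to 103), and both intervals included the density around other protein-coding genes.

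**Figure D1:**
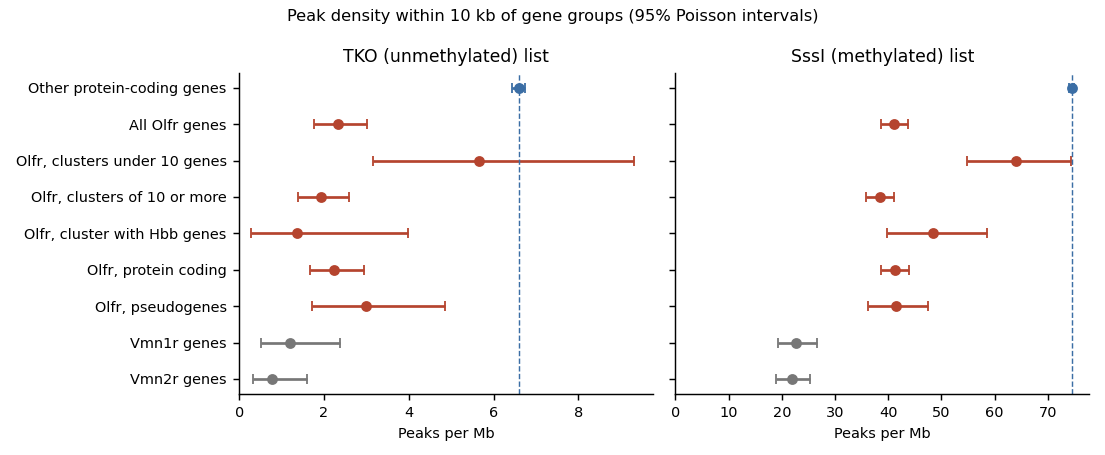
Peaks per Mb (horizontal axis) within 10 kb of groups of genes in the TKO list (left) and the SssI list (right). Points are densities, bars are exact 95% Poisson intervals and the dashed line is the density around other protein-coding genes, at 6.59 and 74.5. All Olfr genes together lie at 2.32 and 41.1, and the Olfr clusters of under 10 genes lie nearer to the dashed line than the larger ones.

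Seen by gene, 75 of 1399 Olfr genes (5.36%, 4.30 to 6.67) had a TKO peak within 10 kb, where 26.7% of other protein-coding genes had one. An SssI peak was within 10 kb of 867 Olfr genes (62.0%, 59.4 to 64.5), against a background of 85.3%. The window of a gene grows with its length: the 1399 Olfr genes covered 24.5 Mb and the 19679 others 1197 Mb. The shares by gene were not adjusted for this, unlike the densities per Mb. A peak can lie near more than 1 gene of a cluster and is then counted for each. Most Olfr genes with an SssI peak had 1 (484 genes) or 2 (236 genes). Olfr56 and Olfr643 had the most, with 11 and 8, and are annotated with the unusual lengths of 156499 and 138606 bp. Olfr279, Olfr1564 and Olfr718-ps1 followed with 7 each, and Olfr279 also had 4 TKO peaks. The distance limit left out a strong peak by a small margin: a TKO peak 10028 bp from Olfr71 had a score of 3197, above the highest score of any TKO peak within the limit, 1936. The last TKO peak inside the limit lay 9851 bp from Olfr1398-ps1 and had a score of 114. In the SssI list the scores were 119 at 9918 bp from Olfr520, inside the limit, and 139 at 10030 bp from Olfr1357, outside it. An SssI peak 10040 bp from Olfr71, with a score of 1313, was left out too.

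The Olfr genes formed 66 clusters when gaps of up to 0.5 Mb were allowed, of which 22 were single genes. The 24 clusters of at least 10 genes held 1277 of the 1399 genes. Their SssI densities ran from 24.3 to 114 peaks per Mb with a median of 38.6, and 22 of the 24 lay below the density around other protein-coding genes. For 19 clusters the whole interval was below it, and for 1 it was above. Their TKO densities ran from 0 to 27.2 with a median of 1.32, and 17 clusters had a TKO peak. In the TKO list the interval was wholly below the density of the other genes for 10 clusters and above it for 1.

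The largest cluster, 287 genes from Olfr987 to Olfr1274-ps at chr2:85330779-90403897, held 138 SssI peaks (31.5 per Mb, 26.4 to 37.2) and 4 TKO peaks (0.912 per Mb). The class I cluster, 156 genes from Olfr543 to Olfr692 with 7 Hbb genes among them, held 107 SssI peaks (48.5 per Mb, 39.8 to 58.6) and 3 TKO peaks (1.36 per Mb, 0.281 to 3.98). All other clusters together had 40.4 SssI peaks per Mb (37.8 to 43.1) and 2.42 TKO peaks per Mb (1.82 to 3.16), and their intervals overlapped those of the class I cluster in both lists. The cluster of 123 genes from Olfr160 to Olfr986 on chromosome 9 held 69 SssI peaks (31.9 per Mb) and 5 TKO peaks, and the 91 genes from Olfr1417 to Olfr1505 on chromosome 19 held 55 (38.1 per Mb) and 2. The lowest SssI density was that of the 46 genes from Olfr1275 to Olfr1319-ps1 on chromosome 2, at 24.3 per Mb (15.1 to 37.2).

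A pair of clusters stood above the rest. The 23 genes from Olfr30 to Olfr311 at chr11:58454105-58844111 held 44 SssI peaks, or 114 per Mb (82.5 to 152), and 3 TKO peaks. The 10 genes from Olfr288 to Olfr278-ps1 at chr15:98186013-98502637 held 23 SssI peaks, or 104 per Mb (66.2 to 157), and 6 TKO peaks, or 27.2 per Mb. Of these 6 TKO peaks, 4 were nearest to Olfr279 and 2 to Olfr282, and a pair of those at Olfr279 lay under 1 SssI peak. This cluster also had the densest alternating tracts of the 24, with 1035 per Mb, where the median was 445. Without it, the TKO ratio of Olfr to other protein-coding genes was 0.319. In 7 of the 24 clusters no TKO peak was found. The largest of these, 58 genes from Olfr90 to Olfr136 on chromosome 17, had 41 SssI peaks in 1.05 Mb. A count of 0 there, read as fewer than 3 peaks, allows a TKO density of up to 2.86 per Mb. The exact Poisson interval reaches 3.52.

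**Figure D2:**
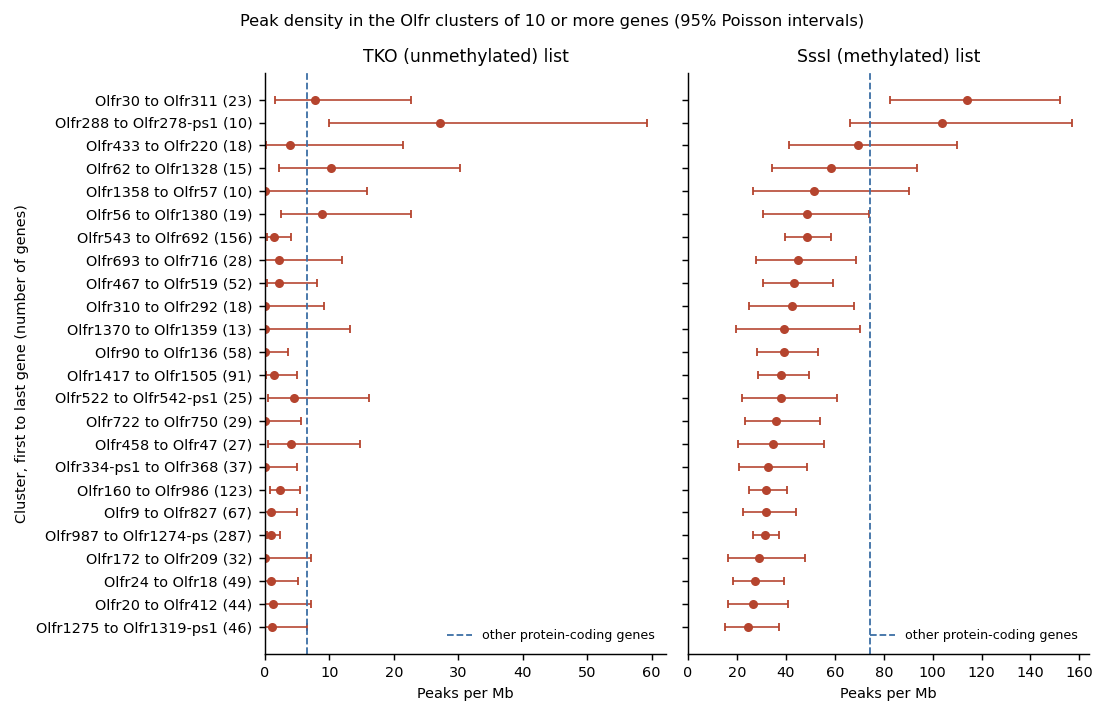
Peaks per Mb (horizontal axis) in each of the 24 Olfr clusters of at least 10 genes, in order of SssI density, for the TKO list (left) and the SssI list (right). Points are densities with exact 95% Poisson intervals, and the dashed line is the density around other protein-coding genes. In the SssI list 22 of the 24 points lie left of the line, and the clusters from Olfr30 to Olfr311 and from Olfr288 to Olfr278-ps1 lie right of it at 114 and 104.

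Small clusters were closer to the other protein-coding genes than large ones. The 42 clusters of under 10 genes, with 122 genes in 2.65 Mb, had 64 SssI peaks per Mb (54.8 to 74.4) and 5.65 TKO peaks per Mb (3.16 to 9.32). The 24 larger ones had 38.4 (35.8 to 41.1) and 1.92 (1.38 to 2.60). GC content was 41.1% around the genes of small clusters and 38.3% around those of large ones, and alternating tracts of at least 24 bp numbered 157 and 115 per Mb. The 1.44 Mb that were within 10 kb of another protein-coding gene as well had 64.5 SssI peaks per Mb (52.1 to 79.1) and 5.55 TKO peaks per Mb (2.40 to 10.9), from 93 and 8 peaks. The other 23.1 Mb had 39.7 (37.2 to 42.3) and 2.12 (1.57 to 2.81).

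Across the 24 large clusters, SssI density had a Spearman's rho of 0.65 with GC content and of 0.62 with the density of tracts of at least 24 bp. TKO density had a rho of 0.52 with GC content and of 0.34 with those tracts, and the rho between the TKO and SssI densities was 0.46. Clusters on 1 chromosome and lists with shared sequence are not independent, so these values are a description.

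Within the gene surroundings, no peak midpoint of either list fell in Olfr coding sequence, which made up 1.12 Mb. The 0 peaks there, read as fewer than 3, allow up to 2.69 per Mb, and the exact Poisson interval reaches 3.30. No TKO peak and 8 SssI peaks overlapped coding sequence at all, and this sequence held no alternating tract of 24 bp or more. Introns were the densest part. They had 282 SssI peaks, or 68.3 per Mb (60.6 to 76.8), an interval that included the 74.5 around other protein-coding genes. They had 22 TKO peaks, or 5.33 per Mb (3.34 to 8.07), whose interval included 6.59. The values of the other genes are for their whole surroundings with flanks. Their introns were not counted apart, so like parts were not compared. Leaving out the 2 Olfr genes longer than 50 kb, a step chosen after the values were seen, gave 69.1 and 4.88 per Mb in Olfr introns. Introns also had 178 tracts of at least 24 bp per Mb, against 113 in the upstream and 111 in the downstream flanks. In the flanks the SssI density was 35.7 (31.8 to 39.9) upstream and 40 (35.8 to 44.7) downstream. The TKO density there was 2.34 (1.43 to 3.61) and 1.63 (0.869 to 2.79). Exons outside coding sequence had 37.3 SssI peaks per Mb (30.5 to 45.3) and 2 TKO peaks, at Olfr1438-ps1 and Olfr1342, or 0.725 per Mb (0.0878 to 2.62). In the 1000 bp before the gene start the SssI density was 47.0 (36.1 to 60.2) with 63 peaks, and between 5000 and 10000 bp before it 27.8 (22.1 to 34.5) with 83. Between 1000 and 2000 bp before the start it was 51.1 (39.4 to 65.3), and between 2000 and 5000 bp 31.9. After the start it was 43.9 (33.6 to 56.4) in the first 1000 bp and 51.8 (40.4 to 65.3) from there to 2000 bp. It was 51.1 (44.3 to 58.7) to 5000 bp, 44.8 from 5000 to 10000 bp and 32.6 from 10000 to 20000 bp. The intervals of the 1000 bp before and after the start overlapped those at 51.1 and 51.8, so the start could not be ranked against them.

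Olfr surroundings differed from those of other protein-coding genes in base composition and in tracts. Their GC content was 38.6% against 43.3%, and they held 5.35 CpGs per kb against 10.1. Alternating tracts of at least 12 bp, not made of A and T alone, numbered 467 per Mb against 679, and those of at least 24 bp 119 against 181. Tracts with a CpG were the scarcer kind by comparison: of at least 12 bp there were 55.5 per Mb around Olfr genes and 141 around the others, and without a CpG 411 and 537. Of at least 60 bp there were 4.20 per Mb with a CpG around Olfr genes and 8.67 around the others, whereas tracts of that length without a CpG numbered 12.9 and 12.6.

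In bins of 1 kb sorted by GC content, the SssI densities were close in the bins poorest in GC and parted as GC rose. Below 34% GC they were 32.5 (27.5 to 38.2) around Olfr genes and 30.1 (28.7 to 31.6) around others. Between 34% and 36% they were 42.6 (35.7 to 50.4) and 45.6 (44 to 47.3). From 42% to 44% they were 40.4 (32.9 to 49.2) and 83.7 (82.3 to 85.1), and at 46% or more 40.4 (32.2 to 50.1) and 85.9 (84.9 to 86.8). The density around other genes rose up to 46% GC, and the densities of all Olfr bins lay between 32.5 and 47.5. Tracts of at least 24 bp fell around Olfr genes from 173 per Mb in the lowest class to 77.9 in the highest, and went from 207 to 160 around other genes. From the lowest class to the highest, TKO densities went from 0.879 (0.240 to 2.25) to 4.87 (2.33 to 8.95) around Olfr genes and from 1.19 (0.919 to 1.51) to 8.70 (8.40 to 9.01) around others. Each TKO density of Olfr bins rests on 4 to 10 peaks.

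**Figure D3:**
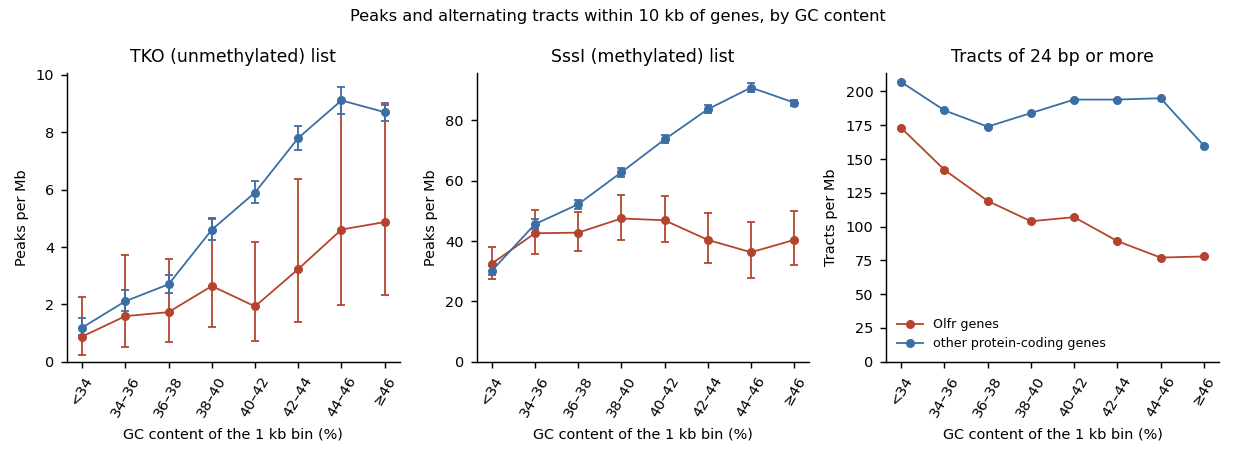
Peaks per Mb in the TKO list (left) and the SssI list (middle), and alternating tracts of at least 24 bp per Mb (right), in 1 kb bins within 10 kb of Olfr genes (red) and of other protein-coding genes (blue), by the GC content of the bin. Bars are exact 95% Poisson intervals. The SssI lines start together, at 32.5 and 30.1, and end at 40.4 and 85.9, while the tract line of the Olfr bins falls from 173 to 77.9.

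Of the tracts that were present, fewer lay in a peak around Olfr genes. A TKO peak overlapped 2.48% (2.21 to 2.78) of 11446 tracts around Olfr genes, against a background of 5.00% around the other protein-coding genes. An SssI peak overlapped 17.7% (17 to 18.4) against a background of 26.9%. For tracts with a CpG the interval included the background in 4 of 5 length classes in the TKO list and 3 of 5 in the SssI list, and for tracts without one in 0 of 5 in both. The classes with a CpG hold fewer tracts and have wider intervals, so the tally does not show that these tracts equalled the background. With all lengths together, a TKO peak overlapped 3.45% (2.60 to 4.56) of tracts with a CpG, against 4.85%. For an SssI peak it was 24.4% (22.2 to 26.7) against 28.3%. For tracts without a CpG the shares were 2.35% (2.07 to 2.66) against 5.04% and 16.8% (16.1 to 17.6) against 26.6%. Of 103 tracts with a CpG of at least 60 bp around Olfr genes, 80 lay in an SssI peak (77.7%, 68.7 to 84.6), where 81.1% did around the others, and 18 lay in a TKO peak (17.5%, 11.3 to 25.9), where 18.6% did. Tracts of that length without a CpG lay in an SssI peak in 38.3% (33.1 to 43.8) against 45.0%, and in a TKO peak in 3.16% (1.73 to 5.73) against 7.11%. Among tracts of 12 to 15 bp the SssI shares were 7.59% (6.95 to 8.27) and 15.2%, and the TKO shares 1.49% (1.21 to 1.82) and 3.33%. Neighbouring tracts can lie in the same peak, so the tracts are not independent of each other.

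**Figure D4:**
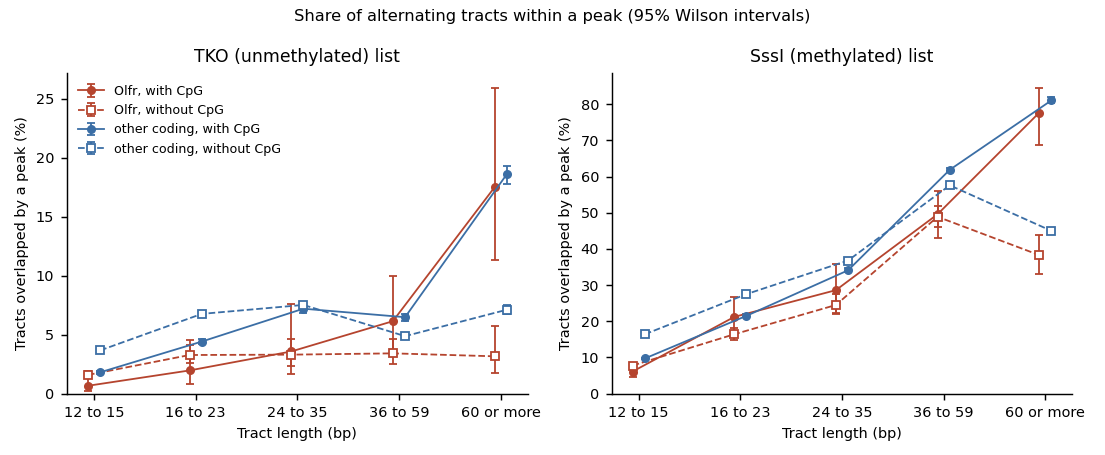
Share of alternating tracts overlapped by a peak (vertical axis, %) by tract length in bp, in the TKO list (left) and the SssI list (right), around Olfr genes (red) and other protein-coding genes (blue), for tracts with a CpG (filled circles) and without (open squares). Bars are 95% Wilson intervals. For tracts of 60 bp or more with a CpG the red and blue shares lie close, at 17.5 and 18.6% and at 77.7 and 81.1%.

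Nearly all of these peaks held an alternating tract, and more of them than near other genes had no CpG. An alternating tract of at least 12 bp was in 55 of the 57 TKO peaks (96.5%, 88.1 to 99.0) and in 98.8% (97.9 to 99.3) of the SssI peaks, against 95.4% and 98.4% near other protein-coding genes. The TKO peaks without one lay at Olfr56 and Olfr1431. The median of the longest tract was 50.0 bp (TKO) and 47.0 bp (SssI), against 45.0 bp near other genes in both lists. Without any CpG were 28 of the 57 TKO peaks (49.1%, 36.6 to 61.7) and 475 of the 1009 SssI peaks (47.1%, 44 to 50.2), against 22.7% and 27.9% near other genes. At the other end, 6 or more CpGs were found in 3.57% (2.59 to 4.90) of the SssI peaks against 10.3%, and in 7 of the TKO peaks (12.3%, 6.08 to 23.2) against 21.3%. Median GC content was 44.9% in TKO peaks and 42% in SssI peaks, against 45.9% and 45.1% near other genes.

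Scores, which are 10 times the −log10 q-value of the peak caller and rank peaks only within their own list, were lower than near other genes. In the TKO list they ran from 40 to 1936 with a median of 145, against a median of 203. In the SssI list they ran from 17 to 1922 with a median of 97, against 108. Each list was divided by score into 5 equal parts. Of the 57 TKO peaks 6 (10.5%, 4.91 to 21.1) were in the highest part, where 20.8% of the peaks near other genes were, and of the SssI peaks 15.9% (13.7 to 18.2) were, against 20%. The highest percentile of the TKO list held 0 of the 57 peaks (0%, 0 to 6.31), an interval that included the 1.15% near other genes. That of the SssI list held 3 of the 1009 (0.297%, 0.101 to 0.871), against 1.10% near other genes. They were at Olfr967, Olfr460 and Olfr464, with scores of 1922, 1895 and 1845. The TKO peaks with the highest scores were at Olfr1344 (1936), Olfr522 (1588), Olfr1395 (1529), Olfr210-ps1 (1344) and Olfr412 (983). They were followed by those at Olfr443-ps1 (939), Olfr463 (682), Olfr527 (560), Olfr1277 (513) and Olfr271-ps1 (472). Of these 10, 9 were in the flanks and 1 was in an intron, that of Olfr1395. Of all 57 TKO peaks, 20 were in the upstream flank, 13 in the downstream flank and 22 in introns. In the SssI list the next were at Olfr271-ps1 (1757), Olfr1221 (1745), Olfr38 (1679), Olfr527 (1666), Olfr463 (1553), Olfr522 (1532) and Olfr315 (1520). Median widths were 220 bp in the TKO list and 189 bp in the SssI list, against 256 and 197 bp near other genes.

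All 57 TKO peaks at Olfr genes overlapped an SssI peak by at least 1 bp (100%, 93.7 to 100), where the background over all autosomal TKO peaks was 99.4%. They overlapped 56 SssI peaks, since a pair at Olfr279 shared 1. The SssI peak was the wider one in 56 of the 57, the exception being at Olfr1177-ps, where it was 150 bp wide and the TKO peak 156 bp. This was not counted over all autosomal TKO peaks, so it cannot be read as particular to Olfr genes. The SssI peak was in the highest 10% of the SssI list by score in 45 of the 57 (78.9%, 66.7 to 87.5), where the background over all autosomal TKO peaks was 82.9%. Its scores ran from 131 at Olfr1177-ps to 1922 at Olfr967. The ranks of the pair rose together, with a Spearman's rho of 0.63 over the 57 peaks, given as a description. The order still changed: the strongest TKO peak, at Olfr1344, had an SssI score of 969, and the strongest SssI peak, at Olfr967, had a TKO score of 174.

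In the other direction, 56 of the 1009 SssI peaks at Olfr genes (5.55%, 4.30 to 7.14) had a TKO peak, against a background of 8.47% over all autosomal SssI peaks and 8.71% near other protein-coding genes. The SssI peaks with a TKO peak had a median score of 1092 and those without one 91.0. In the highest of the 5 parts of the list by score 50 of 160 had a TKO peak (31.2%, 24.6 to 38.8), where 41.5% did near other genes. In the next part 5 of 197 had one (2.54%, 1.09 to 5.80), against 1.53%, and in the middle part 1 of 222. The lowest parts had 0 of 222 and 0 of 208, which, read as fewer than 3, allows shares of up to 1.35% and 1.44%. The Wilson intervals reach 1.70% and 1.81%. The share rose with CpGs at both kinds of gene. It was 3.58% (2.25 to 5.66) without a CpG, 4.91% (3.20 to 7.47) with 1 to 2 and 15% (9.79 to 22.2) with 3 or more near Olfr genes. Near other genes it was 2.87%, 5.74% and 18.4%, each within the interval of the Olfr peaks. Large scores without a TKO peak also occurred, up to 1404.

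**Figure D5:**
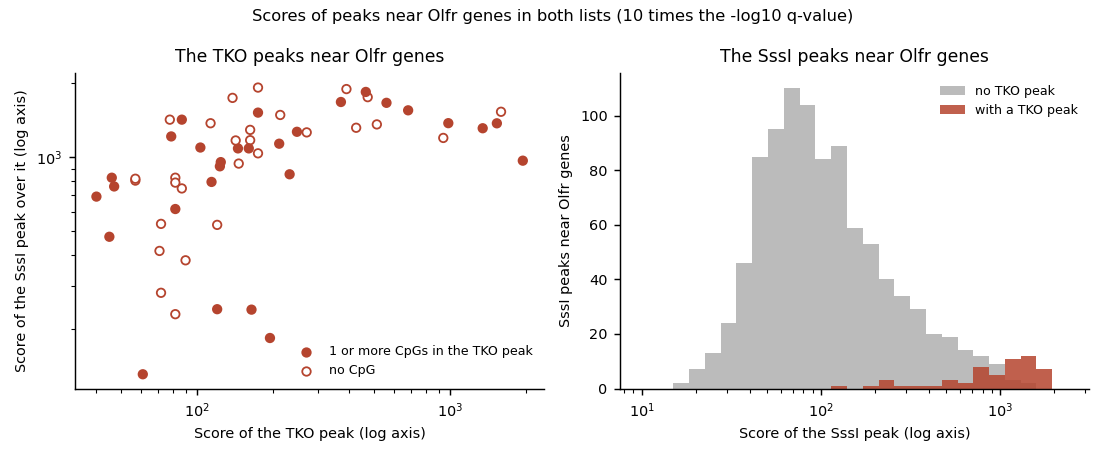
Left, score of each of the 57 TKO peaks at Olfr genes (horizontal, log axis) against the score of the SssI peak over it (vertical, log axis), filled where the TKO peak held a CpG. Right, number of the 1009 SssI peaks at Olfr genes by score (log axis), those with a TKO peak in red; their median is 1092, against 91.0 for those without.

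Reads of 50 bases can match several places where a sequence is repeated. Copies made by gene duplication were not told apart from other repeats here. No filter on mapping quality is stated for the alignments from which these peaks were called, and repeated places can hold peaks too. Of the words of 50 bases in the Olfr surroundings 84.1% occurred once on the assembled chromosomes, counting both strands, against 92.5% around other protein-coding genes. Counted per Mb of such words, a setting chosen after the data were seen, the ratio of Olfr to other densities was 0.388 in the TKO list and 0.607 (0.570 to 0.646) in the SssI list. Within the peaks the median share of such words was 85.2% in the TKO list and 88.4% in the SssI list, against 93.8% near other genes in both. Under 50% of the words occurred once in 4 of the TKO peaks and in 32 of the SssI peaks (3.17%, 2.26 to 4.44), against 7.15% and 2.46% near other genes. The part of repeated sequence in the difference in density was otherwise not tested.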

How the data were processed

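The authors aligned 50 bp read pairs to mm10 with bwa mem 0.7.17, pooled duplicates, and ran MACS2 2.2.7.1 with its defaults (q-values below 0.05) against the MBP libraries. Each row of the deposited lists carries a score, 10 times the peak's −log10 q-value. They give no read counts, fold enrichment or summit, so the depth behind each peak is not known from them (the methods state only a minimum number of reads per library), and the midpoint placed each peak. No mapping-quality filter is stated for these alignments.

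From these lists peak densities were computed per Mb of known bases, taken as the union of gene bodies and flanks of 10 kb in GENCODE M21; the comparison left out bases near Olfr genes. Tracts, CpGs and 50-base words were read from GRCm38. Peaks were shared if they overlapped by 1 bp. Intervals at 95% are exact Poisson for densities, exact conditional for ratios and Wilson for shares, and a count of 0 was read as fewer than 3. The software was scipy 1.17.1, numba 0.67.0, numpy 2.4.6, pandas 2.3.3 and matplotlib 3.10.9 under Python 3.11.15, and the counting was tested on simulated data. Alternatives covered the distance, the q-value, the placing, merging, gene biotype, cluster gap, overlap, tract length and list length. Named were the 10 strongest peaks of each list, the clusters of at least 10 genes and the tracts of the 5 strongest peaks, none from chromosome 18; 2 of these tracts are not reported here. The members and these lists were chosen with earlier results of these data known.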

Additional observations from a re-analysis of the deposited data

How the results depend on the processing

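Of 45 alternative settings, 30 left the value within its interval and 2 gave 69 and 61 clusters, against 66. The ratio of Olfr to other protein-coding density stayed between 0.319 and 0.388 in the TKO list. In the SssI list it was 0.602 within 5 kb and 0.607 per Mb of 50-base words found once, and 0.345 among the strongest peaks, as many as the TKO list holds, the last 2 chosen after seeing the data. It stayed below 1 under every alternative run. With tracts of at least 24 bp, 87.7% of TKO peaks and 92.3% of SssI peaks held one, and 4.07% and 39.8% of tracts lay in a TKO or SssI peak. Peaks with a q-value under 1e-05 overlapped 2.21% and 15.7% of tracts of at least 12 bp. The share of Olfr genes with a TKO peak was 3.65% within 5 kb and 9.51% within 20 kb, and with an SssI peak 47.7% and 80.3%. The shares of tracts, peaks and genes moved because the alternatives admit other tracts, fewer peaks or other distances. For the ratios the cause was not tested.

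No paired analysis was possible because the lists analysed here pool the duplicates and carry no replicate. Signal tracks of single libraries were not analysed here, so leaving out each library in turn was not run. The lists give no depth, and a site without a TKO peak was not detected at the depth used. The 57 TKO peaks leave wide intervals for single clusters. CpGs and tracts were read from the reference, so those that differ in the DNA used were not seen.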
